A study of Mus musculus with 12 samples.

Results

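The 10 genes of mouse chromosome 1 described here lie around the deleted microRNA pair miR-181a/b-1: Ctse, Rab7b, Slc41a1, Ube2t, Ptprv, Rnpep, Lad1, Gm4258, Cacna1e and Tdrd5. They are 10 of the 201 genes within 100 tested genes of Mir181a-1 on either side (itself included), and of 15307 genes tested in at least 1 assay. They were selected on their measured knockout change in these same libraries, and they are the same 10 genes that passed in RNA-seq when the replicate number was kept as a block. Their knockout change is therefore a description, with no test.

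Thymocytes, the developing T cells of the thymus, came from mice 6 weeks old. Wild-type mice (WT) and mice lacking miR-181a/b-1 (KO) each gave 3 RNA-seq and 3 ribosome footprint libraries, 12 in all. Ribosome footprinting sequences the pieces of mRNA that ribosomes shield from nuclease, so its reads follow translation. All cells went through a strainer of 70 µm and into cycloheximide at 0.1 mg/ml, which halts ribosomes. The labels give neither strain, sex, embryonic stem cell line nor backcrossing, nor how the deletion was made. They do not say that replicates are separate mice, so p-values measure the spread between these samples only, which may be technical. In both assays the WT and KO libraries with the same number deviated from their group means in opposite directions (correlations of -0.99 to -0.95 across 7836 genes in RNA-seq and -0.99 across 7124 genes in footprints). Counts with the replicate number as a block are therefore printed beside those without it. Each SE comes from the fit without the block, takes no account of this tie between libraries and may be too small.

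MicroRNAs of the miR-181 family are abundant in immature thymocytes, where they are known for tuning T cell receptor signalling through phosphatase mRNAs. They bind target mRNAs mainly through the seed near their 5′ end. A knockout made by gene targeting is often crossed from the stem cell strain into another, and a stretch of DNA on each side of the target then stays that of the stem cell strain. Genes within such a stretch can differ between knockout and wild type through strain variants as well as through the deletion.

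The sequences of the deleted pair are shown because they are what separates the genotypes by design. They are RefSeq entries of GRCm38.p6, written 5′ to 3′, with the seed (bases 2 to 8) in capitals in the mature forms and the mature arms in capitals in the hairpin.
miR-181a-5p: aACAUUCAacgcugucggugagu
miR-181b-5p: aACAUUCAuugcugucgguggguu
Mir181a-1 hairpin: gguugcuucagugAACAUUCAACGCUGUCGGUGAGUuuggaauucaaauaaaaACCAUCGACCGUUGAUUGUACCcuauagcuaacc
Both mature forms carry the same seed, and over the 23 bases compared they differ at 3.

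The Mir181a-1 row checked the labels. In footprints it stood at 166, 133 and 145 CPM (reads scaled to the normalised library total) in the WT libraries and at 0.464, 1.04 and 0.982 CPM in the KO libraries. The genotypes did not overlap, and the log2 fold change was -7.47 (SE 0.20, edgeR FDR 2.24e-05). In RNA-seq the row had 57 reads over the WT and 67 over the KO libraries (edgeR FDR 0.756). That row checks nothing in RNA-seq, where the genotypes are taken from the labels; the directions of other genes are set beside those in footprints. Depth, as reads in genes, was 4479182 to 8180286 for RNA-seq and 4069968 to 17859770 for footprints.

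Of the 10 genes, 6 were lower in KO (Ctse, Rab7b, Slc41a1, Ptprv, Cacna1e and Tdrd5) and 4 higher (Ube2t, Rnpep, Lad1 and Gm4258). The direction was the same in RNA-seq and footprints for 10 of 10, each of which was called in both assays. The share with the same direction was not counted over all genes called in both. In neither assay did a KO library overlap a WT library for any of the 10, where 30.9% of all tested genes in RNA-seq and 38.1% in footprints showed no overlap. Sizes ran from 0.75 (Tdrd5) to 2.64 (Ctse) on the log2 scale in RNA-seq and from 0.55 (Tdrd5) to 3.21 (Ptprv) in footprints. In bulk thymocytes, fewer cells that express a gene and less RNA per cell cannot be told apart.

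**Figure D1:**
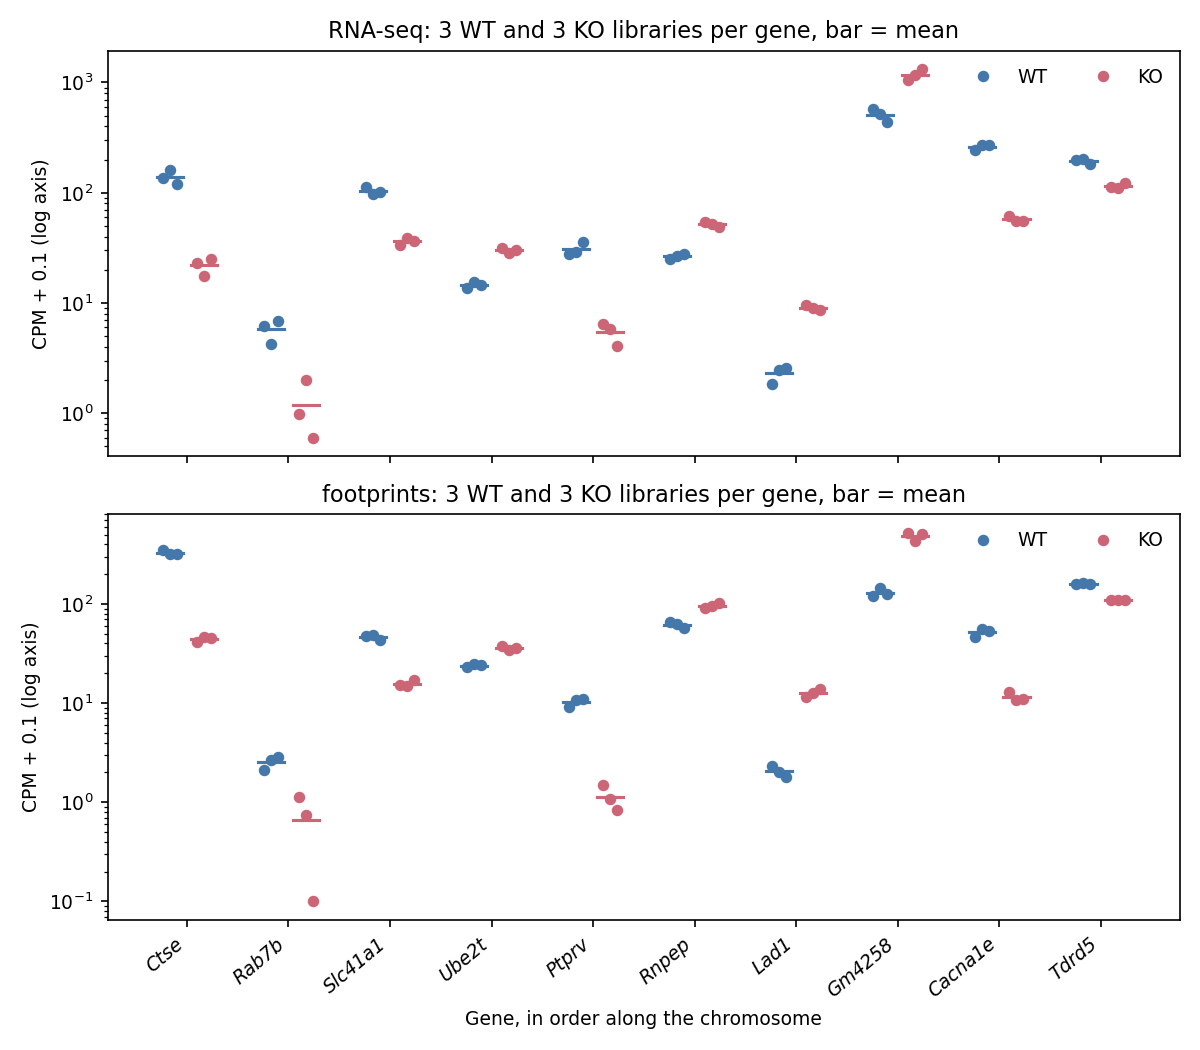
CPM of the 10 genes in each library, with 0.1 added and a log axis, RNA-seq above and footprints below; points are the 3 WT and 3 KO libraries and bars their means. For each gene the WT and KO points are separate, with 6 genes lower and 4 higher in KO, and 1 KO footprint library has 0 reads for Rab7b.

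The gene next to the deletion was examined first. Gm4258 (ENSMUSG00000098243.3), a predicted long noncoding RNA gene, is the nearest tested gene before Mir181a-1 in gene order. In RNA-seq it stood at 570, 521 and 439 CPM in WT and at 1056, 1159 and 1320 CPM in KO. In footprints it stood at 121, 145 and 125 CPM in WT and at 523, 433 and 504 CPM in KO. Every KO library was above every WT library in each assay, at log2 fold changes of 1.21 (SE 0.12) in RNA-seq and 1.90 (SE 0.10) in footprints. In the other direction, the next tested gene after Mir181a-1 is Ptprc, which encodes the phosphatase CD45 of blood cells. Ptprc stood at 3187 ± 361 (WT) and 3891 ± 408 CPM (KO) in RNA-seq (SD, n = 3; log2 fold change 0.29, edgeR FDR 0.181). In footprints it had 3882 ± 116 and 4353 ± 123 CPM (SD, n = 3; 0.16, FDR 0.0399), a call lost with the replicate block (0.393).

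The other close neighbours differed from one another. Gm19705, a long noncoding RNA gene just before Gm4258, was lower in KO, at 4.10 ± 0.184 against 2.06 ± 0.0681 CPM in RNA-seq (SD, n = 3; log2 fold change -1.0, edgeR FDR 0.0121, with the block 0.316) and 9.80 ± 0.655 against 4.54 ± 0.351 CPM in footprints (-1.08, FDR 0.0017, with the block 0.0199). Zfp281, a zinc finger gene before it, was not called in RNA-seq (-0.12, edgeR FDR 0.636) or footprints (-0.06, FDR 0.634). After Ptprc, Nek7, which encodes a kinase needed for the NLRP3 inflammasome, was called higher in footprints (0.38, edgeR FDR 0.00327, with the block 0.0698) and not in RNA-seq (0.37, FDR 0.167). The row of 2310009B15Rik was not called in either assay (-0.03 and -0.05, edgeR FDR 0.966 and 0.853).

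A run of 3 consecutive tested genes farther out were lower in KO together: Ctse, Rab7b and Slc41a1, which lie 56, 55 and 54 tested genes before Mir181a-1. Ctse (ENSMUSG00000004552.16) encodes cathepsin E, an aspartic protease of the endosomes that is known from antigen-presenting and other blood cells. Its RNA-seq values were 135, 159 and 121 CPM in WT and 23.0, 17.5 and 24.9 CPM in KO. Its footprint values were 352, 317 and 321 CPM in WT and 41.2, 46.0 and 45.4 CPM in KO. The KO level was 6.23-fold lower in RNA-seq (log2 fold change -2.64, SE 0.15) and 7.48-fold lower in footprints (-2.90, SE 0.07).

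Rab7b (ENSMUSG00000052688.12) encodes a small GTPase of late endosome and lysosome traffic. Its counts were low: 117 WT and 18 KO reads in RNA-seq, and 110 and 21 in footprints. RNA-seq gave 6.04, 4.18 and 6.75 CPM in WT and 0.878, 1.89 and 0.499 CPM in KO. Footprints gave 2.00, 2.57 and 2.75 CPM in WT and 1.02, 0.650 and 0 CPM in KO, and the 0 reads of KO replicate 3 allow up to 0.735 CPM (3 counts, counting error only). All KO libraries lay below all WT libraries. The log2 fold changes were -2.55 (SE 0.39) in RNA-seq and -1.78 (SE 0.39) in footprints, the widest errors of the 10 genes. Rab7b was the 1 gene of the 10 that was not called in footprints with the replicate block.

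Slc41a1 (ENSMUSG00000013275.9) encodes a magnesium transporter of the cell membrane. RNA-seq gave 112, 96.8 and 102 CPM (WT) against 33.4, 39.1 and 36.5 CPM (KO). Footprints gave 47.2, 48.2 and 43.0 CPM in WT and 15.1, 14.7 and 16.9 CPM in KO. KO libraries were thus lower throughout, by 2.86-fold in RNA-seq (log2 fold change -1.52, SE 0.09) and 3.02-fold in footprints (-1.60, SE 0.07).

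Ube2t and Ptprv are also consecutive, 23 and 22 tested genes before Mir181a-1, and they moved in opposite directions. Ube2t (ENSMUSG00000026429.9) encodes the ubiquitin-conjugating enzyme of the Fanconi anaemia pathway of DNA repair. In RNA-seq it reached 13.7, 15.5 and 14.5 CPM (WT) against 31.3, 28.2 and 30.2 CPM (KO). In footprints the values were 22.8, 24.8 and 24.0 CPM in WT and 37.5, 34.4 and 35.6 CPM in KO. KO libraries were higher throughout, at a log2 fold change of 1.04 (SE 0.08) in RNA-seq and 0.59 (SE 0.06) in footprints.

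Ptprv (ENSMUSG00000097993.7) is known for a receptor-type tyrosine phosphatase of bone-forming cells, and RefSeq lists it in this assembly as a transcribed pseudogene. RNA-seq levels were 27.5, 28.9 and 35.5 CPM (WT) against 6.29, 5.68 and 3.99 CPM (KO). Footprints gave 9.10, 10.7 and 10.9 CPM in WT and 1.39, 0.974 and 0.736 CPM in KO. The log2 fold change was -2.55 (SE 0.18) in RNA-seq and -3.21 (SE 0.18) in footprints, the largest footprint fall of the 10 genes. Ptprv overlaps Ptpn7 in RefSeq. Since the strand setting of the counting is not given in the sources used here, reads of the shared stretch cannot be told apart.

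Rnpep (ENSMUSG00000041926.15) and Lad1 (ENSMUSG00000041782.14) lie 17 and 11 tested genes before Mir181a-1. Rnpep encodes aminopeptidase B, which trims basic residues from the start of peptides. The RNA-seq values were 25.1, 26.4 and 27.7 CPM (WT) against 53.8, 52.1 and 49.0 CPM (KO). Its footprints were at 65.0, 62.1 and 56.6 CPM in WT and 90.3, 94.7 and 103 CPM in KO. The KO level was higher by 0.97 (SE 0.07) in RNA-seq and 0.63 (SE 0.07) in footprints on the log2 scale, with no overlap.

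Lad1 encodes ladinin, known as a protein of the filaments that anchor epithelium to the basement membrane. RNA-seq read it at 1.75, 2.37 and 2.48 CPM (WT) against 9.51, 9.0 and 8.48 CPM (KO), from 46 and 171 reads. Footprints gave 2.23, 1.90 and 1.71 CPM in WT and 11.4, 12.7 and 13.7 CPM in KO. KO libraries were higher throughout, by 4.02-fold in RNA-seq (log2 fold change 2.01, SE 0.15) and 6.26-fold in footprints (2.65, SE 0.12), the largest rise of the 10 genes in each assay.

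After Mir181a-1 lie Cacna1e and Tdrd5, at 49 and 62 tested genes. Cacna1e (ENSMUSG00000004110.17) encodes the pore subunit of an R-type voltage-gated calcium channel best known from neurons. In RNA-seq libraries it stood at 245, 270 and 270 CPM (WT) against 62.0, 55.4 and 55.6 CPM (KO). Footprints were at 46.8, 55.4 and 53.8 CPM in WT and 12.8, 10.6 and 10.8 CPM in KO. The falls were alike in size, -2.18 in RNA-seq (SE 0.07) and -2.18 in footprints (SE 0.10) on the log2 scale. The predicted gene Gm51649 overlaps Cacna1e in RefSeq, with the same limit as for Ptprv.

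Tdrd5 (ENSMUSG00000060985.15) encodes a Tudor domain protein known from the silencing of transposons in male germ cells. RNA-seq put it at 199, 203 and 182 CPM (WT) against 114, 110 and 122 CPM (KO). Footprints were at 160.2, 161 and 160.5 CPM in WT and 110.4, 109 and 109.5 CPM in KO. The fall was the smallest of the 10 genes, -0.75 (SE 0.07) in RNA-seq and -0.55 (SE 0.03) in footprints on the log2 scale.

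RNA and footprint changes were then set side by side. The fold change was larger in footprints for 5 genes (Ctse, Slc41a1, Ptprv, Lad1 and Gm4258), larger in RNA-seq for 4 (Rab7b, Ube2t, Rnpep and Tdrd5) and equal to 2 decimals for Cacna1e. The difference of the assays, given by the genotype-by-assay term of a fit to the 12 libraries, was largest for Rab7b at 0.78 (SE 0.66), followed by Gm4258 at 0.69 (SE 0.16), Ptprv at -0.66 (SE 0.32) and Lad1 at 0.63 (SE 0.22). It was -0.46 for Ube2t (SE 0.11), -0.33 for Rnpep (SE 0.11), -0.27 for Ctse (SE 0.17) and 0.20 for Tdrd5 (SE 0.08). Slc41a1 (-0.08, SE 0.12) and Cacna1e (-0.01, SE 0.11) showed the smallest. None of the 10 was among the 25 of 11854 genes called for this difference (0.211%, or 0.0169% with the replicate block), which does not show that their assays changed alike. At an FDR under 0.1, Ube2t and Gm4258 were among the 131 genes called (1.11%), at edgeR FDR 0.0958 and 0.0997. Neither passed with the replicate block within each assay (edgeR FDR 0.998 for both). With a block for each genotype and replicate number, shared by both assays, they stood at 0.106 and 0.136. Since this term is made from the changes that chose the genes, its values are descriptions too.

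**Figure D2:**
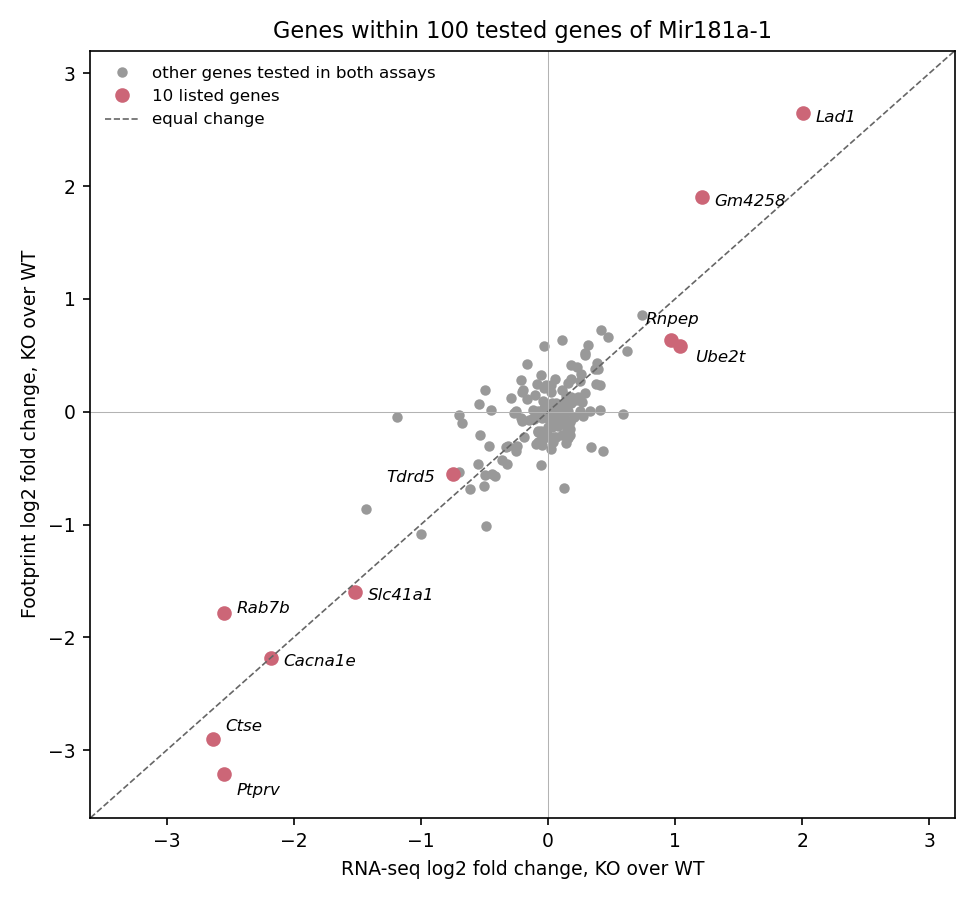
Log2 fold change of KO over WT in RNA-seq (x axis) and footprints (y axis) for genes within 100 tested genes of Mir181a-1 that were tested in both assays, without Mir181a-1 itself. The 10 listed genes have the same sign in both assays, 4 in the upper right and 6 in the lower left.

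**Figure D3:**
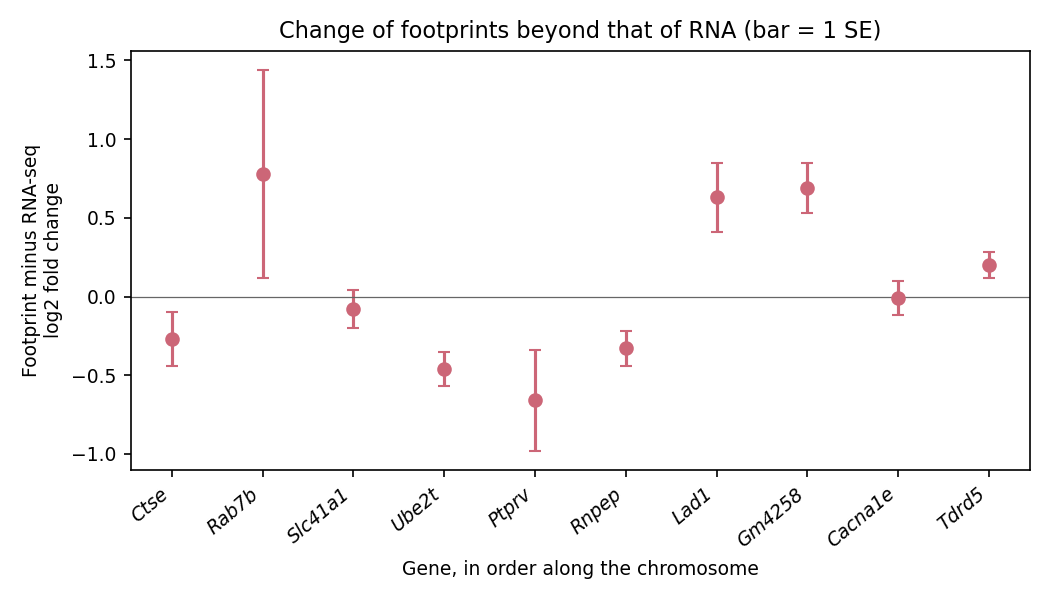
Footprint minus RNA-seq log2 fold change (interaction) for each of the 10 genes, in order along the chromosome; bars are 1 SE. Values run from -0.66 for Ptprv to 0.78 for Rab7b, the latter with the widest error.

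The ratio of footprints to RNA within WT libraries uses no KO library, but its WT values also entered the choice of the genes, so it is given as a description. Over 11854 genes the median log2 ratio of mean footprint CPM to mean RNA-seq CPM (with 0.1 CPM added to each) was -0.20. Ctse (1.25, percentile 87.5), Rnpep (1.21, percentile 86.6) and Ube2t (0.71, percentile 75.7) stood high. Lad1 (-0.17) and Tdrd5 (-0.28) were near the median. Low ratios were found for Rab7b (-1.18), Slc41a1 (-1.17), Ptprv (-1.57, percentile 15.1), the noncoding Gm4258 (-1.97, percentile 10.2) and Cacna1e (-2.33, percentile 7.07). The 10 genes thus spread over most of the range, and the ratio says nothing of absolute protein output. In KO libraries Gm4258 stood at -1.28 (percentile 20.1) and Ptprv at -2.26 (percentile 7.61), whereas Cacna1e stayed at -2.33 (percentile 7.11).

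The whole stretch of chromosome was then counted. Its 201 genes are set by gene order, but they include the 10 chosen on their change. All 10 are among the calls of each assay, so the shares called partly restate that choice. In RNA-seq 26 of 180 tested genes were called at an edgeR FDR under 0.05 (14.4%), against 6.91% of all tested genes. Of the 26, 12 were higher and 14 lower in KO, against 3.48% and 3.43% of all. With the replicate number as a block, 10 of 180 were called (5.56%), which are the 10 described, against 0.806%. In footprints 50 of 183 were called (27.3%), against 17.6%, and with the block 17 of 183 (9.29%) against 3.02%. Of the 50, 23 were higher and 27 lower, against 9.25% and 8.34% of all. Mir181a-1 is among the footprint calls. Leaving out any 1 library left 11 to 15 calls in RNA-seq (5.88% to 8.06% of the stretch, against 1.55% to 2.32% of all tested genes). In footprints it left 30 without KO replicate 2 and up to 40 otherwise (16.3% to 21.6%, against 7.75% to 10.9%). The typical gene of the stretch differed little: the median size of the log2 fold change was 0.176 in RNA-seq and 0.206 in footprints, against 0.168 and 0.166 for genes outside the chromosome. Because the stretch was proposed with these results known, the shares are given as descriptions. Calls that were also beyond 2-fold made up 9 of 180 in RNA-seq (5.0%, against 1.42% of all tested genes) and 10 of 183 in footprints (5.46%, against 2.36%).

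Of the 162 genes of the stretch tested in both assays, 22 were called in both (13.6%, against 3.92% of the 11854 tested in both). The 10 chosen genes are among the 22. All 22 had the same direction, but this was not counted for the genes called in both elsewhere, so it cannot be set against them. With the block 9 of the 162 were called in both, against 0.675% of the 11854, and all 9 are among the 10 chosen genes. The 22 called without the block are the 10 described and 12 others. Among the 12, 3 passed 1.5-fold in both assays, of which Gm19705 is given above. Rgs2, which encodes a regulator that shuts off G protein signalling, lies 16 tested genes after Mir181a-1 and rose from 19.2 ± 1.99 to 31.8 ± 3.14 CPM in RNA-seq (SD, n = 3; log2 fold change 0.74, edgeR FDR 0.0168) and from 42.1 ± 0.827 to 76.1 ± 1.73 CPM in footprints (0.86, FDR 0.000174). Csrp1, which encodes a LIM domain protein, lies 13 before and fell from 135 ± 12.7 to 88.5 ± 9.32 CPM in RNA-seq (-0.61, FDR 0.025) and from 267 ± 16.5 to 166 ± 10.1 CPM in footprints (-0.69, FDR 0.00181). With the block the RNA-seq calls of both were lost (edgeR FDR 0.111 and 0.104) and the footprint calls held (0.000868 and 0.00372). They are the genes just outside the choice, Csrp1 nearest, and Ralb follows (0.16 with the block in RNA-seq); just inside stand Rab7b (0.0323) and Tdrd5 (0.0244).

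**Figure D4:**
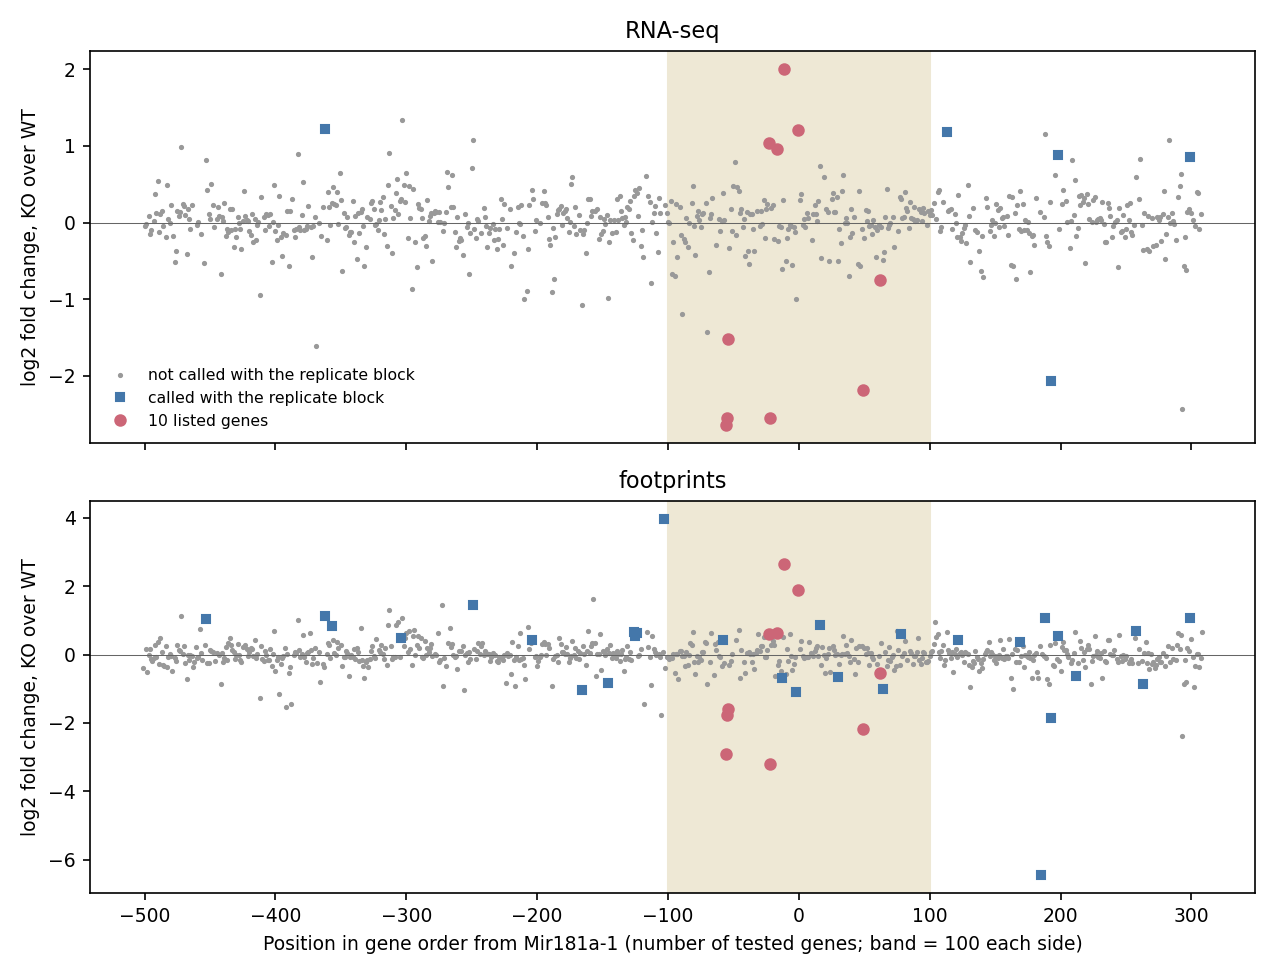
Log2 fold change of KO over WT for tested genes of chromosome 1 by their position in gene order from Mir181a-1 (x axis, number of tested genes), RNA-seq above and footprints below, without Mir181a-1. Red circles are the 10 listed genes, blue squares other genes called with the replicate block, and the band covers 100 tested genes on each side; the red circles run from 56 before to 62 after.

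The 10 genes span 119 places in gene order, 8 before Mir181a-1 and 2 after. In successive blocks of 50 tested genes, RNA-seq calls with the replicate block numbered 3 at 51 to 100 before, 5 at 1 to 50 before, 1 at 1 to 50 after and 1 at 51 to 100 after. The 12 full blocks of the chromosome farther away held 0 to 2 each. Without the block the same 4 held 10, 9, 5 and 2 calls, against 1 to 9 in the 12 farther blocks, so that the last 3 of them lay within the range seen elsewhere on the chromosome. In footprints the 4 held 12, 18, 11 and 8 calls against 5 to 13, and of the 4 only the block just before Mir181a-1 exceeded that range. Footprint calls with the replicate block numbered 3, 7, 3 and 3, against 0 to 5. Over the rest of the chromosome 49 of 534 genes were called in RNA-seq (9.18%) and 5 of 534 with the block (0.936%). In footprints these were 115 of 575 and 22 of 575 (3.83%).

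**Figure D5:**
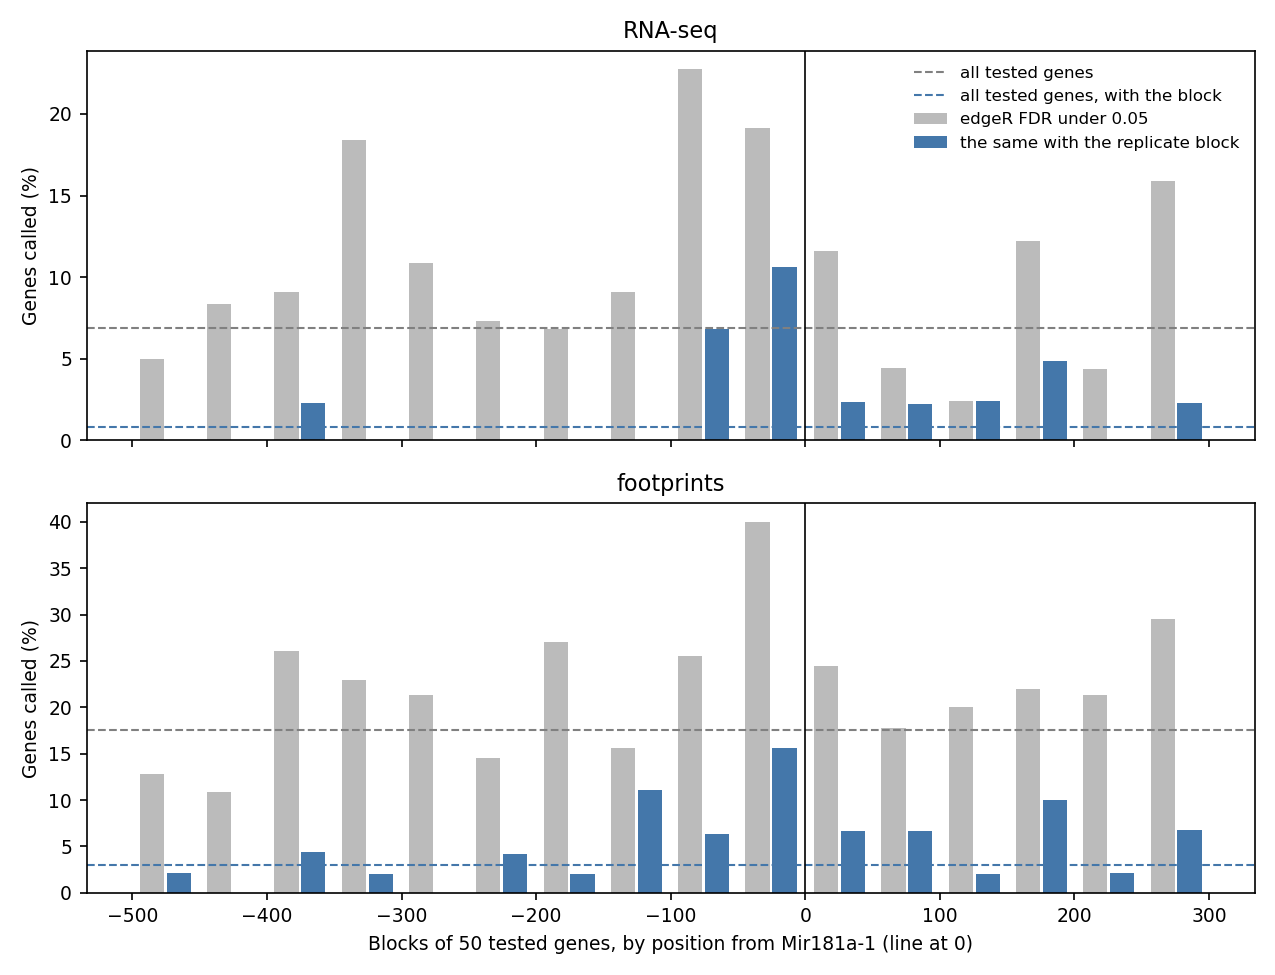
Share of tested genes called in each full block of 50 tested genes along chromosome 1, by position from Mir181a-1 (line at 0), without (grey) and with (blue) the replicate block; dashed lines give the share over all tested genes. In RNA-seq the blue bars are highest in the pair of blocks before Mir181a-1, at 6.82% and 10.6%.

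Whether DNA kept from another strain accounts for these changes was not tested: the counts hold no sequence variants and the labels name no strain. Loss of miR-181, loss of DNA at the locus and strain variants on the same chromosome separate the same KO from the same WT libraries and cannot be told apart in this design. The measurements that describe position are given above, and none of them tests a cause. The direction varied between neighbours (Ube2t higher, Ptprv lower). Zfp281, which was not called, lay among genes that were, and most genes of the stretch were not called. The share called was higher in the stretch than over all tested genes: 14.4% against 6.91% in RNA-seq and 27.3% against 17.6% in footprints. With the replicate block it was 5.56% against 0.806% and 9.29% against 3.02%. These shares include the genes chosen on their change.

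RefSeq promoters (250 bases before to 50 after a gene start) were matched for 7 of the 10 genes, all but Ctse, Rab7b and Ptprv. The letters are those of the C57BL/6J reference, and whether the KO chromosome carries the same ones was not tested. Gm4258 is shown as the gene beside the deletion and Slc41a1 as the available promoter of the run of 3 that fell. Motifs were searched on both strands. The TATA box was taken as the letters TATAAA. RUNX factors were given the letters TGTGGT. For ETS factors the search used the letters CCGGAAG. The GATA family was searched with the letters AGATAA. For E proteins the E-box was searched with the letters CAGCTG. The last motif was the CCAAT box, by those letters. Capitals mark each match, which on the minus strand reads as the reverse complement, and the matches in the printed promoters do not overlap.
Gm4258, GRCm38.p6, chr1:137898214-137898513, plus strand: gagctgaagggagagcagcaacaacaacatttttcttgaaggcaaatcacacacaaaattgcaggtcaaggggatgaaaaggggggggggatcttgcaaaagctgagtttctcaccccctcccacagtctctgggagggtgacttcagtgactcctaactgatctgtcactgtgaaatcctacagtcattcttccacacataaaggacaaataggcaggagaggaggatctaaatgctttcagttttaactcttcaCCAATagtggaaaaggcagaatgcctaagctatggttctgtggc
Slc41a1, GRCm38.p6, chr1:131827762-131828061, plus strand: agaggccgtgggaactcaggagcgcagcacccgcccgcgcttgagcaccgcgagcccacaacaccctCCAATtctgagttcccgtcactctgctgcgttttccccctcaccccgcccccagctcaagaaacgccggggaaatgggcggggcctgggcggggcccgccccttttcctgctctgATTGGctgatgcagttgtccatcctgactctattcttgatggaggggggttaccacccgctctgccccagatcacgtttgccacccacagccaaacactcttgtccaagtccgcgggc
The CCAAT letters stood in 3 of the 7 promoters (Slc41a1, Ube2t and Gm4258) and in 37.9% of 27025 promoters. TGTGGT stood in Ube2t and Rnpep (16.9% of all) and AGATAA in Lad1 (11.4% of all). The TATA box, the ETS motif and the E-box were in none of the 7 windows, against 14.2%, 9.12% and 16.1% of all promoters. The Gm4258 window held 0 CG pairs and that of Tdrd5 48, more than 98.8% of promoters. No motif stood in all of the falling or all of the rising genes with a promoter.

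Several of the 10 genes are known from cells other than thymocytes, so marker lists were read beside them. The 8 thymocyte markers summed to 11575 to 12877 CPM in WT and 10914 to 11849 CPM in KO RNA-seq, with 0 of 8 called there and 4 of 8 in footprints (1 higher, 3 lower; with the block 1 higher, 0 lower). Markers of macrophages and dendritic cells summed to 86.5 to 102 CPM in WT and 75.6 to 92.0 CPM in KO RNA-seq, with 1 of 10 called, lower (4 of 10 in footprints, lower). With the block these were 0 and 2. The RNA-seq ranges overlapped. Lyz2, the most abundant of these markers, was higher in KO RNA-seq (log2 fold change 0.15, edgeR FDR 0.324). The others were lower, Siglech by most (-1.07, edgeR FDR 0.0165). In footprints Lyz2 (0.14) and Cd68 (0.06) were higher and the others lower. Markers of thymic epithelium summed to 36.4 to 42.8 CPM in WT and 27.7 to 32.8 CPM in KO RNA-seq. Their footprint sums overlapped, at 106 to 134 CPM (WT) and 90.6 to 122 CPM (KO). Of these markers 1 of 6 tested was called in RNA-seq and 1 of 7 in footprints, each lower, and 0 with the block in each. B cell markers summed to 15.4 to 21.8 CPM in WT and 21.3 to 29.3 CPM in KO RNA-seq. In footprints they summed to 47 to 61.2 and 61.9 to 81.1 CPM (0 of 6 called in RNA-seq, 2 of 6 higher in footprints, 1 with the block). Erythroid markers summed to 76.6 to 91.8 CPM in WT and 46.6 to 58.9 CPM in KO RNA-seq (1 of 5 tested markers lower in each assay, 0 with the block). Their footprint sums overlapped, at 40.75 to 76.4 and 35.15 to 75.4 CPM. Stroma markers summed to 39.6 to 42.7 and 33.6 to 36.0 CPM in RNA-seq (0 of 4 tested called). In footprints their sums overlapped, at 92.0 to 133 and 108 to 159 CPM (0 of 5 called). Sex-linked genes summed to 364 to 428 CPM in WT and 471 to 538 CPM in KO RNA-seq, with 1 of 4 tested higher (0 with the block). Of 4 in footprints 1 was higher and 1 lower (with the block 0 and 1). That sum mixes Xist with Y-linked genes. In RNA-seq Xist stood at 0.145 (WT) and 0.139 CPM (KO). Ddx3y stood at 136.5 and 178.5 CPM, Uty at 79.9 and 86.5, Kdm5d at 98.3 and 115.8, and Eif2s3y at 87.1 and 117.9. Both genotypes thus had Y-linked RNA and almost no Xist. No marker was at 0 reads over all libraries of an assay, and the part of other cell types in the 10 changes was not tested.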

How the data were processed

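Both kinds of library came from the Illumina TruSeq Ribo Profile (Mammalian) kit, per the labels' protocols. For each assay the authors deposited a table of counts by Ensembl gene, in whole numbers, whose name calls them adjusted without stating the adjustment. The submitters' processing notes name FastQC, Bowtie2 2.5.1, STAR 2.7.10a, HTSeq 2.0.3 and DESeq2 1.40.2, with no role; no source used here gives the genome build or whether counting used strand. The authors' 2 comparison tables, and the 12 columns of per-library values in them, were not used. Of 55335 gene rows, 54587 took a symbol by versioned and 567 by unversioned ID. Gene order was taken from RefSeq GRCm38.p6.

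Each assay was fitted with edgeR 4.0.16 in R 4.3.3 (TMM, filterByExpr with a minimum count of 10, quasi-likelihood test, Benjamini-Hochberg over all tested genes), and calls have FDR under 0.05. The SE is the log2 fold change divided by the square root of F, from the fit without the replicate block. The interaction of genotype and assay used all 12 libraries, with TMM within each assay. Fits were tested on simulated counts, where 94.8% (RNA-seq), 93.7% (footprints) and 91.2% (translation) of changed genes were recovered, with 13, 10 and 21 false calls. Those counts were drawn independently for each library. They lack the tie between same-numbered libraries, so they cannot show how the fits behave under it. How the adjustment bears on the spread between replicates was not tested. Named genes are the 10, Mir181a-1, the 3 nearest tested genes on each side, and other genes within 100 called in both assays beyond 1.5-fold in both (at most 12). The 10 genes, the stretch and the marker lists were chosen with earlier results of these data known. The alternatives tried were DESeq2 1.42.0, RLE normalization, all genes without a filter, an FDR under 0.1, windows of 50 and 200 tested genes, the replicate block and the omission of each library. Ralb was named after its values were seen. Transcript sequences were not used, so seed matches in the 10 genes were not analysed here.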

Additional observations from a re-analysis of the deposited data

Results flagged for a closer look

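The row of Mir181a-1 stood out because the genotype-by-assay term gave it unlike changes in the 2 assays: -7.80 on the log2 scale (SE 0.63, edgeR FDR 0.000318). Its footprint level was lower in 3 of 3 KO libraries, while its RNA-seq reads were few (57 in WT and 67 in KO). The row is that of a noncoding microRNA gene, so the term does not measure translation there. What its footprint reads derive from was not tested. The call held with the replicate block within each assay (edgeR FDR 0.000226). It also held with a block for each genotype and replicate number, shared by both assays (edgeR FDR 0.0258). The labels do not tie the numbers of the assays to each other. The same term called none of the 10 genes around it.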

How the results depend on the processing

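The log2 fold changes of the 10 genes moved by less than the spread between replicates in all 200 combinations of gene, assay and alternative, and none changed sign. Rab7b was the only one of the 10 to lose its call: with the replicate block in footprints, without WT replicate 1 or 3 or KO replicate 1 or 3 in RNA-seq (log2 fold changes of -3.04 to -2.14 over the omissions), and without WT replicate 2 or 3 or KO replicate 2 in footprints (-2.21 to -1.56). Counts over the stretch depended more on the processing. RNA-seq calls went from 26 to 10 with the replicate block, 17 under DESeq2, 40 at an FDR under 0.1, 14 within 50 tested genes (fewer genes by construction) and 11 to 15 with 1 library left out (fewer samples). Footprint calls went from 50 to 17 with the replicate block, 30 within 50 and 91 within 200 tested genes, and 30 (without KO replicate 2) to 40 with 1 library left out. The translation call went from 1 to 2 under DESeq2 and 4 at an FDR under 0.1, Ube2t and Gm4258 among them (neither with the replicate block). It stayed at 1 with the replicate block within each assay, with a block for each genotype and number shared by both assays, and in each omission. For RNA-seq and footprints the share called in the stretch was above that over all tested genes under each of these settings listed. The stretch includes the 10 genes chosen on their change, so that excess partly restates the choice. For translation the 1 call of the main fit is Mir181a-1, the deleted gene itself and noncoding, so its share says nothing of translation or of the genes around it. Other than where stated, the cause was not tested. Deviations of same-numbered WT and KO libraries from their genotype means correlated at -0.99 to -0.95 over 7836 genes in RNA-seq and at -0.99 over 7124 genes in footprints (differently numbered, 0.17 to 0.71 and 0.38 to 0.63). The deposited counts thus tie the numbers. Because the adjustment is not stated and may have removed a shared deviation, these counts cannot show whether pairs deviated together before it. The main fits did not take the numbers as pairs. Depth limits Rab7b most, with 18 KO reads in RNA-seq and 21 in footprints.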

Other observations

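Farther along chromosome 1, more than 100 tested genes from Mir181a-1, 5 of 534 genes were called in RNA-seq with the replicate block. That is 0.936%, near the 0.806% over all tested genes. The 5 were chosen after their values were seen. Stat4, which encodes a transcription factor of interleukin-12 signalling, lies 362 tested genes before and was higher in KO, at 19.6 ± 0.473 against 45.7 ± 0.924 CPM in RNA-seq (SD, n = 3; log2 fold change 1.22, edgeR FDR with the block 0.00301) and 1.13 on the log2 scale in footprints (0.000624). On the other side, Tbx19, a T-box transcription factor gene known from the pituitary, lies 113 after and was higher by 1.18 in RNA-seq (0.0331), with 0.66 in footprints not called with the block (0.132). A pair of interferon-inducible genes of the Ifi200 cluster went in opposite directions, 193 and 198 tested genes after. Ifi208 fell by 2.07 in RNA-seq (edgeR FDR with the block 0.0198) and 1.85 in footprints (0.000366) on the log2 scale, and Ifi203 rose by 0.88 (0.0322) and 0.54 (0.026). Hsd11b1, which encodes the enzyme that regenerates active glucocorticoid, lies 299 after and rose by 0.86 in RNA-seq (edgeR FDR with the block 0.031) and 1.08 in footprints (0.00129).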
